A study of Mus musculus with 6 samples.

Results

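The genes described here are NRF2 (gene Nfe2l2), its repressor KEAP1 (gene Keap1) and 8 well-known NRF2 targets that import cystine, make and recycle glutathione, or keep thioredoxin reduced. They were picked out by gene symbol, and all 10 were found among the 18749 gene rows of the deposited counts. The list was selected on known roles in the NRF2 pathway and on the CPM of both marrow groups in these same libraries, which were in view when it was drawn up. RNA came from the aorta of 6 recipients, all Apoe-/-, a genotype without apolipoprotein E. The 3 Sept2C111A recipients had been given bone marrow from Apoe-/-Sept2C111A donors, and the 3 control recipients Apoe-/- bone marrow. Each had received angiotensin II (Ang II), a hormone that raises blood pressure and provokes aortic aneurysms in mice of this genotype, by infusion for 28 days. By the name of the allele, a cysteine of septin-2 is exchanged for alanine, so that nitric oxide can no longer modify that residue, and the series asks how S-nitrosylated septin-2 of macrophages bears on aneurysms. The altered protein is carried by cells of marrow origin, while the smooth muscle, endothelium and fibroblasts of the wall, and any blood cells the recipient kept, are largely the host's. The labels give neither age nor sex.

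NRF2 is a transcription factor that KEAP1 marks for destruction in unstressed cells. Oxidants and electrophiles that react with cysteines of KEAP1 halt that destruction, and NRF2 then binds antioxidant response elements with a small MAF protein as its partner, while BACH1 competes for the same elements. Most of these targets serve 1 of 2 thiol systems. Slc7a11 encodes xCT, which brings in cystine in exchange for glutamate, and cystine is reduced to the cysteine from which glutathione is built. Thioredoxin is the other thiol carrier, and its reductase passes electrons from NADPH. Wall cells and infiltrating phagocytes can both express these genes.

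The members were chosen with this comparison in view, so their differences are given as a description without p-values. Levels are in CPM, a gene's counts set against the scaled total of its library. Of the 10 genes, 8 had lower and 2 had higher fitted levels in Sept2C111A recipients. Their median difference was -0.74 on the log2 scale, against 0.00 over all 14466 genes tested, of which 49.9% were lower. A log2 fold change of -1 or lower was found for 4 members, Slc7a11, Gclm, Gsr and Osgin1, and for 7.69% of all genes tested. The 3 Sept2C111A libraries lay wholly below the 3 control libraries for 4 members, Slc7a11, Gclm, Gsr and Txnrd1, where 11.9% of all genes tested did so and 11.2% did so in the other direction, as did 0 members. No member passed edgeR's quasi-likelihood test after adjustment over all genes, as 0% of all genes did in either direction. At an unadjusted p under 0.05 edgeR counted 5 members as lower, where the share of all genes was 8.83%, and 0 as higher, where it was 6.17%. DESeq2 counted 5 members as lower at an adjusted p under 0.05, where the share of all genes was 2.88%, and 0 as higher, where it was 1.09%. Nothing is read from these counts, since the same contrast led to the choice of genes.

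**Figure D1:**
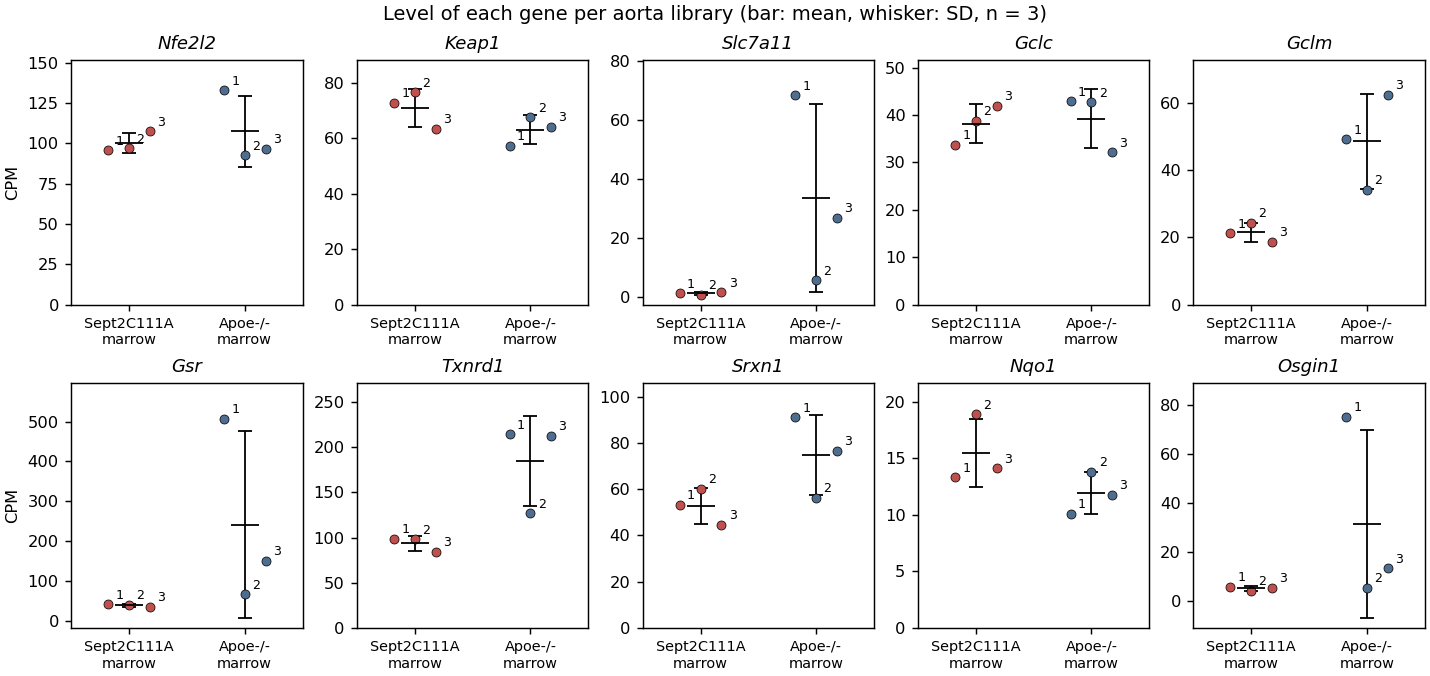
CPM of each gene in every aorta library (points, numbered by replicate), with the mean (bar) and SD (whisker) of 3 libraries per group, Sept2C111A recipients on the left and control recipients on the right. Slc7a11, Gsr and Osgin1 stand highest in control recipient 1 by a wide margin. Slc7a11, Gclm, Gsr and Txnrd1 are higher in every control recipient than in every Sept2C111A recipient.

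Expected counts summed to between 17082719 and 20494928 per library. Control recipients 1 and 3 lay apart from the other 4 libraries on the first 2 principal components, which held 46.6% and 28.1% of the variance. Smooth muscle markers summed to 16030 to 24020 CPM in Sept2C111A libraries and to 6067 to 18840 CPM in control libraries, with control recipient 3 lowest. Neutrophil markers summed to 22.7 to 38.0 CPM in Sept2C111A libraries, against 3222, 98.9 and 355 CPM in control recipients 1, 2 and 3. Because the samples are whole tissue, fewer cells of a type and less RNA per cell cannot be told apart for any value below.

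The regulators themselves differed little. Nfe2l2 (chromosome 2, 75675513 to 75704641, mm10) stood at 95.8, 97.1 and 107.5 CPM in Sept2C111A recipients 1, 2 and 3, against 132.9, 92.7 and 96.5 CPM in control recipients 1, 2 and 3. The groups overlapped, with control recipient 1 the highest library, and the log2 fold change was -0.10 (SE 0.17), or 0.09 without that library. Keap1 (chromosome 9, 21229730 to 21239361), the adaptor that hands NRF2 to the CUL3 ubiquitin ligase, stood at 72.8, 76.7 and 63.5 CPM in Sept2C111A recipients, against 57.4, 67.7 and 64.2 CPM in control recipients. Its groups overlapped too, at a log2 fold change of 0.17 (SE 0.13). NRF2 is controlled mainly at the level of the protein, which counts of transcripts do not measure. One annotated gene on the opposite strand, Gm16754, overlaps exons of Keap1, and the strand setting of the counting is not given in the sources used here.

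Slc7a11 (chromosome 3, 49892526 to 50443614), the cystine importer, showed the largest difference of the 10 genes. It stood at 1.26, 0.718 and 1.50 CPM in Sept2C111A recipients 1, 2 and 3, from 23.9, 13.0 and 26.7 expected counts. In control recipients 1, 2 and 3 it stood at 68.4, 5.73 and 26.9 CPM, from 1226, 109 and 544 expected counts. Every control library was above every Sept2C111A library, and the lowest control was 3.82 times the highest Sept2C111A value, but the controls themselves spanned 11.9-fold. Means were 1.16 ± 0.401 CPM in Sept2C111A recipients and 33.7 ± 31.9 CPM in control recipients (SD, n = 3 each), which is -4.85 as a log2 fold change (SE 0.95), or -3.79 without control recipient 1. Slc3a2, the heavy chain that carries xCT to the cell surface and serves other transporters as well, stood at 99.8 ± 6.18 CPM in Sept2C111A recipients and 147 ± 35.5 CPM in control recipients (SD, n = 3 each). Its difference was -0.56 on the log2 scale (SE 0.20), with an edgeR adjusted p of 0.316. For each 1 count of Slc3a2 there were 0.0126, 0.00766 and 0.0140 counts of Slc7a11 in Sept2C111A recipients 1, 2 and 3, against 0.391, 0.0533 and 0.169 in control recipients 1, 2 and 3.

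The promoter window of Slc7a11 is printed because it carries motifs of 2 stress pathways. The sequences are RefSeq's for GRCm38.p6 (mm10), 250 bases before to 50 bases after the annotated start, on the gene's own strand, 5′ to 3′. Capitals mark matches on either strand to the core of the antioxidant response element (TGACNNNGC or TGAGNNNGC), to the AP-1 motif (TGANTCA) and to the element bound by ATF4 and C/EBP proteins (TGATGCAA). Slc7a11 is read from chr3:50443564-50443863 on the minus strand, and Osgin1 and Srxn1, which have overlapping AP-1 and antioxidant motifs, from chr8:119436897-119437196 and chr2:152105274-152105573 on the plus strand. The Osgin1 window lies inside the annotated span of that gene, which begins at 119434124 and has 7 transcripts. Its start is therefore not the first base of that span.
Slc7a11: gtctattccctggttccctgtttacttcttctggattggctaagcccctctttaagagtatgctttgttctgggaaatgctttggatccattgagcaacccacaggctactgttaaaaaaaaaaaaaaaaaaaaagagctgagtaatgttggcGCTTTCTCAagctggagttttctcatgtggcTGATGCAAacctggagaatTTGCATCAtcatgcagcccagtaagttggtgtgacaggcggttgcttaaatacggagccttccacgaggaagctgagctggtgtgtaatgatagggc
Osgin1: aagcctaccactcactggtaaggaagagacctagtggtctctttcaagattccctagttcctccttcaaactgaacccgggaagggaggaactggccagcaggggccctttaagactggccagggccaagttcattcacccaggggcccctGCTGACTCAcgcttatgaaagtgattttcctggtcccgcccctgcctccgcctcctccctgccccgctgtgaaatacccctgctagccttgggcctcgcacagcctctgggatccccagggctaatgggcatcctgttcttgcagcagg
Srxn1: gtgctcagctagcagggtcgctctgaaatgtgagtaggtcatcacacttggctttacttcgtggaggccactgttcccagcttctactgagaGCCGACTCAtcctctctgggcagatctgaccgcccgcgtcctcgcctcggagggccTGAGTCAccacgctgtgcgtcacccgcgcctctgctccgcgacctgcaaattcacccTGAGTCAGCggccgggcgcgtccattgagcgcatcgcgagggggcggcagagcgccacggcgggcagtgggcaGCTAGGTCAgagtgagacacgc
In Slc7a11 the element bound by ATF4 occurs once on each strand, its leftmost bases at -66 and -47 from the start, and the antioxidant core occurs at -97 on the minus strand. In Osgin1 the antioxidant core TGAGTCAGC, on the minus strand at -99, shares its bases with an AP-1 match at -97. In Srxn1 the same 9 letters stand on the plus strand at -45 and hold an AP-1 match, another AP-1 match stands at -102, and the antioxidant core occurs on the minus strand at -158 and 29.

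Glutathione synthesis split between the subunits of its first enzyme. Gclm (chromosome 3, 122245557 to 122270732), the modifier subunit of glutamate-cysteine ligase, stood at 21.3, 24.4 and 18.7 CPM in Sept2C111A recipients 1, 2 and 3, against 49.3, 34.2 and 62.4 CPM in control recipients 1, 2 and 3. The groups did not overlap, control recipient 3 was the highest library, and the log2 fold change of -1.18 (SE 0.24) was -1.16 without control recipient 1 and -0.96 without control recipient 3. Gclc (chromosome 9, 77754535 to 77794485), the catalytic subunit, stood at 33.7, 38.8 and 41.9 CPM in Sept2C111A recipients, against 42.9, 42.7 and 32.1 CPM in control recipients. Its groups overlapped at a log2 fold change of -0.04 (SE 0.16). The ratio of Gclm counts to Gclc counts was 0.632, 0.628 and 0.446 in Sept2C111A recipients 1, 2 and 3, against 1.15, 0.799 and 1.94 in control recipients 1, 2 and 3, again without overlap. Gm6061 on the same strand and Gm17494 on the opposite strand overlap exons of Gclm, so that some of its reads may be theirs.

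Gsr (chromosome 8, 33652523 to 33698163), glutathione reductase, which returns oxidised glutathione to its thiol form, stood at 41.4, 40.6 and 34.7 CPM in Sept2C111A recipients 1, 2 and 3. In control recipients 1, 2 and 3 it stood at 507, 66.3 and 151 CPM. Sept2C111A libraries were close together and below every control, while the controls spanned 7.65-fold with control recipient 1 far above the rest. The log2 fold change of -2.63 (SE 0.72) was -1.47 without control recipient 1. Per kilobase of merged exons Gsr averaged 14.1 CPM per kilobase in Sept2C111A recipients, below Nfe2l2 at 26.4, Srxn1 at 18.7 and Keap1 at 15.1. In control recipients it averaged 87.7 CPM per kilobase, a mean carried by control recipient 1 at 184, and without that library it averaged 39.4. In control recipient 2 Gsr, at 24.1 CPM per kilobase, was just below Nfe2l2 at 24.4. Slc7a11 was the lowest per kilobase in both groups, at 0.0834 CPM per kilobase in Sept2C111A recipients and 2.42 in control recipients.

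In the thioredoxin system, Txnrd1 (chromosome 10, 82833951 to 82897712), the cytosolic thioredoxin reductase, stood at 98.6, 97.9 and 84.2 CPM in Sept2C111A recipients 1, 2 and 3, against 214, 127 and 213 CPM in control recipients 1, 2 and 3. Every control library was above every Sept2C111A library, and the log2 fold change of -0.98 (SE 0.23) was -0.85 without control recipient 1. Srxn1 (chromosome 2, 152105516 to 152111376), sulfiredoxin, which repairs over-oxidised peroxiredoxins, stood at 53.3, 60.3 and 44.6 CPM in Sept2C111A recipients, against 91.1, 56.4 and 76.7 CPM in control recipients. Here control recipient 2 lay below Sept2C111A recipient 2, and the log2 fold change was -0.50 (SE 0.21).

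The remaining targets differed in direction. Nqo1 (chromosome 8, 107388225 to 107403206), a quinone reductase often used as a readout of NRF2, stood at 13.4, 18.9 and 14.1 CPM in Sept2C111A recipients, against 10.1, 13.8 and 11.8 CPM in control recipients. The groups overlapped, with Sept2C111A recipient 2 the highest and control recipient 1 the lowest, at a log2 fold change of 0.38 (SE 0.21). Osgin1 (chromosome 8, 119434124 to 119446256), an oxidative stress-induced growth inhibitor, stood at 5.78, 4.20 and 5.45 CPM in Sept2C111A recipients, against 75.3, 5.52 and 13.5 CPM in control recipients. Control recipient 2 lay within the Sept2C111A range, and the log2 fold change of -2.61 (SE 0.94) was -0.87 without control recipient 1, so that 1 library set most of its size.

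**Figure D2:**
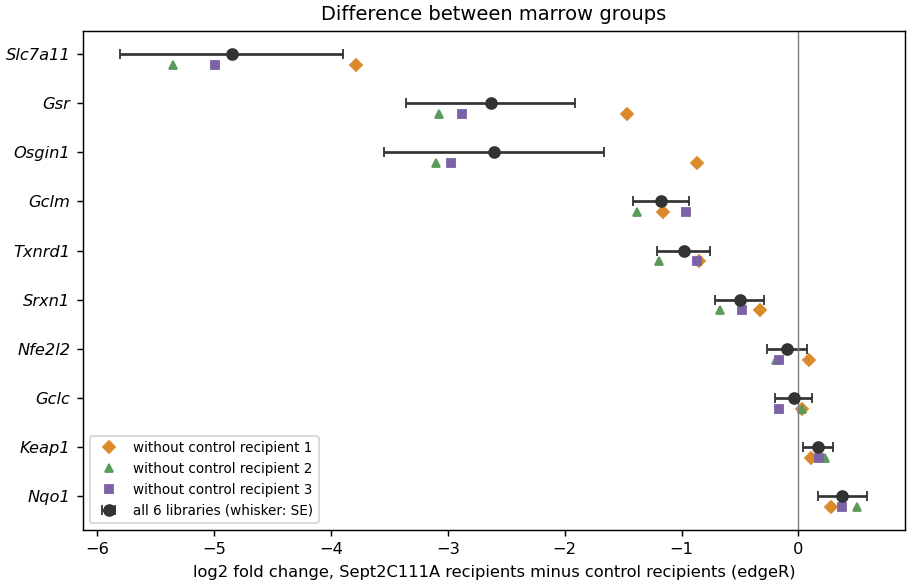
Log2 fold change of each gene, Sept2C111A recipients minus control recipients, from edgeR on all 6 libraries (circles with SE) and with each control recipient left out in turn (other symbols). Leaving out control recipient 1 brings Osgin1 to -0.87 and Gsr to -1.47, while Gclm stays at -1.16 and Txnrd1 at -0.85.

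Within the control group the 10 genes did not vary alike. The order control recipient 1, then 3, then 2 was shared by 6 members, Nfe2l2, Slc7a11, Gsr, Txnrd1, Srxn1 and Osgin1, where 17.5% of all genes tested had that order. Part of it rested on near ties, since Txnrd1 stood at 214 and 213 CPM in control recipients 1 and 3. Nfe2l2 stood at 92.7 and 96.5 CPM in control recipients 2 and 3. Keap1 and Nqo1 had control recipient 1 lowest. The log2 range over the 3 controls was 3.74 for Osgin1, 3.55 for Slc7a11 and 2.93 for Gsr, wider than in 98.3%, 98.0% and 96.5% of the genes tested, whose median range was 0.58. For Gclm and Txnrd1 it was 0.87 and 0.75. Among Sept2C111A recipients Slc7a11 ranged over 0.96, at its low counts, and the other 9 genes over 0.17 to 0.50, beside a median of 0.37 for all genes tested.

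Likeness of pattern was measured as the root-mean-square difference between centred log2 CPM profiles over the 6 libraries, where 0 means the same profile, for 11541 named genes outside the 10 with a mean of at least 5 CPM. Gclm and Txnrd1 were each other's nearest member, at 0.155, as were Gsr and Osgin1, at 0.36, and Keap1 and Nqo1, at 0.172. The nearest other genes to Slc7a11 were Ppbp, a platelet and megakaryocyte chemokine, at 0.376, Retnlg, a resistin-like protein of neutrophils, at 0.441, and Adam8, a leukocyte metalloprotease, at 0.542. Ppbp and Retnlg reached the mean of 5 CPM through the control libraries. In Sept2C111A libraries they stood at no more than 3.36 and 0.420 CPM. The filter thus favoured profiles high in controls, and nothing is read from the likeness of Ppbp and Retnlg to Slc7a11. Nearest to Osgin1 were Il17ra, the interleukin-17 receptor, at 0.202, Ccl6, a myeloid chemokine, at 0.203, and Slfn2, a Schlafen protein of leukocytes, at 0.211. Nearest to Gclm were Hmga1, a chromatin protein, at 0.118, Rnf19b, a ubiquitin ligase, at 0.131, and Aldh3b1, an aldehyde dehydrogenase, at 0.146. Nearest to Txnrd1 were Cstb, a cysteine protease inhibitor, at 0.058, Eml4, a microtubule-binding protein, at 0.077, and Pgm1, a phosphoglucomutase, at 0.092.

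**Figure D3:**
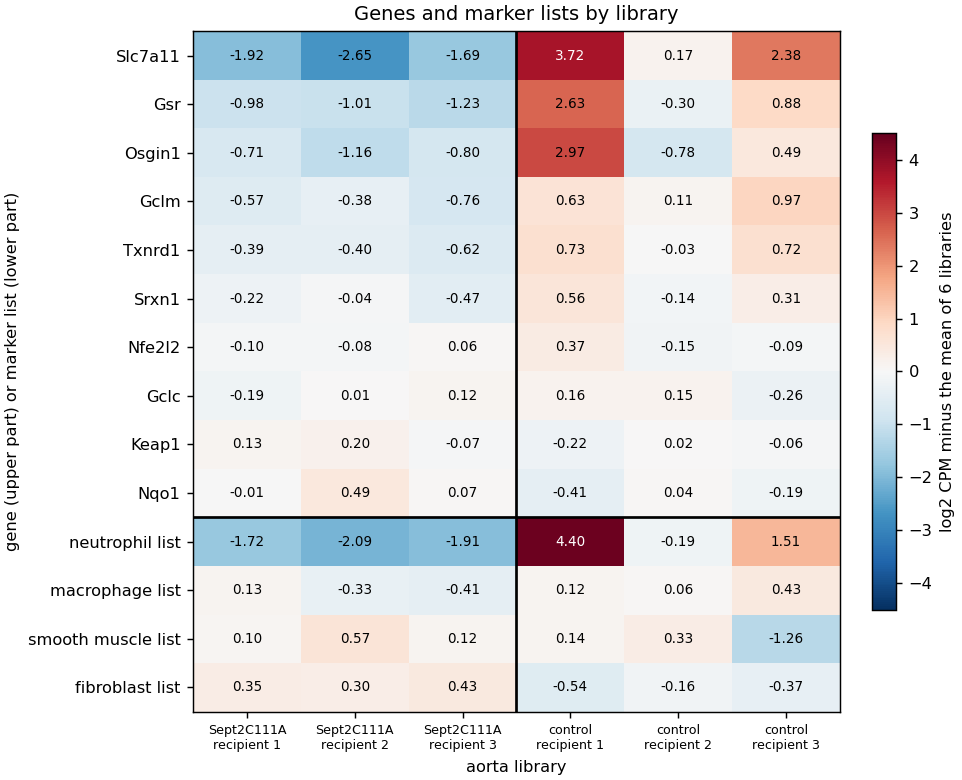
Log2 CPM of each gene, or mean over each list of cell type markers, relative to its own mean over the 6 libraries. Sept2C111A recipients are the 3 columns on the left and control recipients the 3 on the right. Slc7a11, Gsr and Osgin1 peak in control recipient 1 at 3.72, 2.63 and 2.97, where the neutrophil list is at 4.40. The erythroid and lymphocyte lists, which are not drawn, are also highest in that library, at 2.10 and 0.93.

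Of 12 neutrophil markers listed, 9 had enough counts to be tested. All 9 had lower fitted levels in Sept2C111A recipients, as had 49.9% of all genes tested. The groups did not overlap for 8 of these 9, where 11.9% of all genes tested were lower without overlap. Among them, Retnlg, Mmp8, Ltf and Trem1 stood at no more than 0.788 CPM in any Sept2C111A library. They passed the count filter through the control libraries, so that a lower level was largely fixed by the filter. Nothing is therefore read from these counts beside the shares of all genes. Of the 9, 8 had the control order 1, then 3, then 2, where 17.5% of all genes tested did. Gclm, Gclc, Keap1 and Nqo1 did not have that order. S100a8, a subunit of calprotectin, stood at 3.05, 0.995 and 1.45 CPM in Sept2C111A recipients 1, 2 and 3, against 651, 12.8 and 105 CPM in control recipients 1, 2 and 3. Ly6g, a defining surface marker of neutrophils, was at 0 in all 3 Sept2C111A libraries and in control recipient 2. Ltf, Camp and Ngp were at 0 in at least 1 Sept2C111A library. Ly6g, Camp and Ngp had too few counts to be tested, and Camp reached at most 0.198 CPM and Ngp 0.558 CPM in any library. Lcn2, whose groups overlapped, stood at 8.46, 5.75 and 12.2 CPM in Sept2C111A recipients 1, 2 and 3. In control recipients 1, 2 and 3 it stood at 73.8, 4.05 and 5.69 CPM. Monocyte and macrophage markers summed to 2325 to 3573 CPM in Sept2C111A recipients. They summed to 3466, 3357 and 4544 CPM in control recipients 1, 2 and 3, so that the groups overlapped. Of these 15 markers 12 (80.0%) had lower fitted levels in Sept2C111A recipients, beside 49.9% of all genes tested. The groups did not overlap for 3 of them, Itgam, Fcgr1 and Cd68 (20.0%), beside 11.9% of all genes tested. Itgam, an integrin chain that neutrophils also carry, stood at 53.2, 49.1 and 47.9 CPM in Sept2C111A recipients 1, 2 and 3, against 985, 78.1 and 126 CPM in control recipients 1, 2 and 3. Cd14, a receptor for bacterial lipopolysaccharide, stood at 37.1, 34.3 and 30.4 CPM in Sept2C111A recipients, against 477, 34.4 and 53.9 CPM in control recipients. Both had the control order of Slc7a11, Gsr and Osgin1, and both were named after their values were seen. That order was held by 4 of the 15 markers, where 17.5% of all genes tested had it. In control recipients 1, 2 and 3 Csf1r stood at 144, 223 and 273 CPM and Lyz2 at 840, 1462 and 2045 CPM. These markers were lowest in control recipient 1 among the controls, and were also picked after their values were seen. Erythroid markers, of which all 6 tested had the control order 1, then 3, then 2, summed to 203 to 710 CPM in Sept2C111A recipients and 71.3 to 1692 CPM in control recipients. Fibroblast markers summed to 7787 to 9431 CPM in Sept2C111A recipients and 4469 to 5542 CPM in control recipients. Endothelial markers summed to 735 to 1531 CPM in Sept2C111A recipients and 803 to 1478 CPM in control recipients, and lymphocyte markers to 6.74 to 24.6 CPM in Sept2C111A recipients and 14.8 to 34.3 CPM in control recipients. Cell cycle genes summed to 108 to 248 CPM in Sept2C111A recipients and 232 to 546 CPM in control recipients. The part of these cells in the values of the NRF2 genes was not tested. Without control recipient 1, the library with the highest neutrophil sum, the log2 fold changes of Slc7a11, Gsr, Gclm, Osgin1 and Txnrd1 were -3.79, -1.47, -1.16, -0.87 and -0.85, where those over all libraries were -4.85, -2.63, -1.18, -2.61 and -0.98. Leaving it out does not remove the difference in neutrophil markers, whose sums were 98.9 and 355 CPM in control recipients 2 and 3. Control recipient 1 also had the highest erythroid sum, at 1692 CPM, so this fit cannot single out neutrophils.

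Other genes of the pathway were taken from 7 lists of regulators, further targets and neighbouring pathways, 114 genes in all, of which 113 had a row and 110 were tested. Some genes stand in 2 lists. No gene of these lists passed edgeR's test over all genes. They showed no common direction: 59 were higher and 51 lower in Sept2C111A recipients, and their median difference was 0.06 on the log2 scale. At an unadjusted p under 0.05 edgeR counted 14 higher (12.7%) and 15 lower (13.6%), beside 6.17% and 8.83% of all genes. DESeq2 counted 2 higher (1.82%) and 4 lower (3.64%), close to the 1.09% and 2.88% of all genes. The 4 lower by DESeq2 were Hmox1, Ftl1, Bach1 and Chac1, and the 2 higher Gstm1 and Txnrd3. Ftl1 was named after its values were seen. With each library left out in turn, DESeq2 called Hmox1 in 6 of 6 fits, Ftl1 in 3, Bach1, Chac1 and Gstm1 in 2 each and Txnrd3 in 1.

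Among 16 regulators and partners of NRF2, 11 were lower and 5 higher. Bach1, the repressor that competes with NRF2 for antioxidant elements, stood at 46.0, 42.6 and 44.5 CPM in Sept2C111A recipients, against 106, 60.4 and 75.4 CPM in control recipients. Its groups did not overlap, and the difference was -0.86 on the log2 scale (SE 0.21), with an adjusted p of 0.316 by edgeR and 0.0251 by DESeq2. Nfe2, the NRF2 relative of erythroid and megakaryocytic cells, stood at 38.5 CPM in control recipient 1 and at under 2 CPM in each other library, with a log2 fold change of -4.79 (SE 1.55), or -1.50 without control recipient 1. Nfe2 passed the count filter through the control libraries, at no more than 0.553 CPM in any Sept2C111A library. DESeq2 on all 6 libraries gave Nfe2 no adjusted p. Syvn1, a ubiquitin ligase of the endoplasmic reticulum, overlapped between groups at -0.48 (SE 0.21).

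Among 23 further targets tested, 12 were higher and 11 lower. Hmox1, which degrades haem and is a target of NRF2 and of BACH1 repression, stood at 39.1, 54.9 and 33.7 CPM in Sept2C111A recipients, against 857, 413 and 1198 CPM in control recipients, and had the largest difference of this list. Its order among controls, 3 then 1 then 2, was that of Gclm and of 12.2% of all genes tested. The summed monocyte and macrophage markers, and the summed endothelial markers, had that order too, and their part in these values was not tested. Ftl1, the ferritin light chain, stood at 1099 ± 159 CPM in Sept2C111A recipients and 2388 ± 1039 CPM in control recipients (SD, n = 3 each). Gstm1, a glutathione transferase, and Cbr1, a carbonyl reductase, ran the other way without overlap. Gstm1 stood at 240 ± 46.1 CPM in Sept2C111A recipients and 108 ± 37.5 CPM in control recipients, a difference of 1.15 on the log2 scale (SE 0.28), with an adjusted p of 0.316 by edgeR and 0.0129 by DESeq2. Cbr1 stood at 22.6 ± 3.99 CPM in Sept2C111A recipients and 14.5 ± 2.12 CPM in control recipients.

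**Figure D4:**
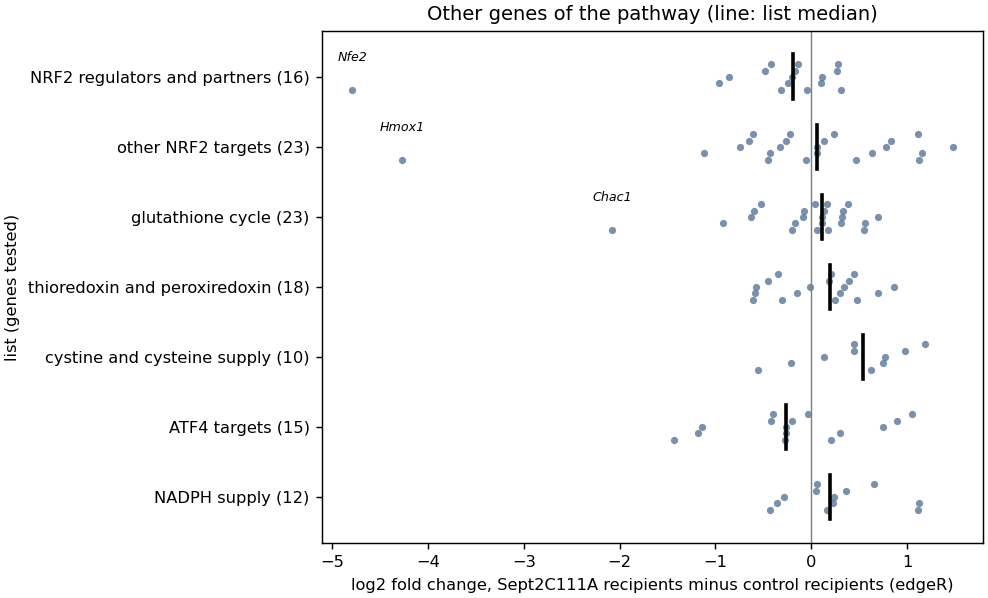
Log2 fold change, Sept2C111A recipients minus control recipients, of each tested gene in 7 lists of the pathway (points), with the list median (line). Medians run from -0.26 for ATF4 targets to 0.54 for cystine and cysteine supply, and Nfe2, Hmox1 and Chac1 stand far to the left.

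In the glutathione cycle 14 of 23 tested genes were higher and 9 lower. Chac1, which breaks glutathione down and is induced by ATF4, stood at 2.52, 1.49 and 1.22 CPM in Sept2C111A recipients, against 12.7, 3.37 and 6.08 CPM in control recipients, a difference of -2.08 on the log2 scale (SE 0.57), with an adjusted p of 0.316 by edgeR and 0.0210 by DESeq2. The difference was -1.42 without control recipient 1, where DESeq2 did not call it, and -1.34 by limma-voom. Glrx, glutaredoxin, stood at 21.9 ± 0.249 CPM in Sept2C111A recipients and 41.5 ± 22.2 CPM in control recipients, without overlap. Glo1, which clears methylglyoxal with glutathione, stood at 79.9 ± 1.34 CPM in Sept2C111A recipients and 64.4 ± 7.90 CPM in control recipients. In the thioredoxin list 10 of 18 were higher and 8 lower. Txnrd3, a thioredoxin-glutathione reductase, stood at 17.7 ± 0.976 CPM in Sept2C111A recipients and 10.9 ± 2.16 CPM in control recipients, opposite in direction to Txnrd1. Prdx1, a peroxiredoxin and NRF2 target, differed by -0.61 on the log2 scale (SE 0.21), and Msrb2, a methionine sulfoxide reductase, by 0.86 (SE 0.25).

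In the supply of cystine and cysteine, 8 of 10 tested genes were higher and 2 lower, Slc3a2 being one of the 2. Mpst, a mercaptopyruvate sulfurtransferase, and Cbs, cystathionine beta-synthase, differed by 0.74 (SE 0.25) and by 0.98 (SE 0.39) on the log2 scale. Cbs was low, at 2.58, 2.38 and 5.17 CPM in Sept2C111A recipients 1, 2 and 3, against 1.62, 1.68 and 1.83 CPM in control recipients. Its difference was 0.54 without Sept2C111A recipient 3. Of 15 ATF4 targets, ATF4 itself included, 10 were lower and 5 higher. Psat1, of serine synthesis, and Slc7a5, the amino acid transporter that also pairs with SLC3A2, differed by -1.14 (SE 0.38) and by -1.43 (SE 0.46) on the log2 scale, and Vldlr, a lipoprotein receptor, by 1.05 (SE 0.33). None of these passed edgeR's test. Among 12 genes of NADPH supply 9 were higher and 3 lower. Tkt, transketolase, stood at 429 ± 206 CPM in Sept2C111A recipients and 196 ± 35.1 CPM in control recipients, and Me1, malic enzyme, at 270 ± 110 CPM in Sept2C111A recipients and 125 ± 46.8 CPM in control recipients. Nnt, the mitochondrial transhydrogenase, had a log2 fold change of 0.66 (SE 0.25). Tkt and Me1 are also abundant in fat cells, and adipocyte markers summed to 2393 to 5572 CPM in Sept2C111A recipients and 1120 to 3260 CPM in control recipients, whose part in these values was not tested.

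Promoter windows were at hand for 8 of the 10 genes, all but Gclc and Gsr. They numbered 10, since Txnrd1 has 3. The antioxidant core occurred in 6 of these 10 windows, 1 each of Slc7a11, Gclm, Txnrd1, Srxn1, Osgin1 and Nfe2l2, where 30.8% of 14474 windows of the genes tested held it. The match in Gclm read TGACGGTGC, on the minus strand at -134, and that in Txnrd1 read TGACAAAGC, on the minus strand at -92 from 1 of its 3 annotated starts. Neither Keap1 nor Nqo1 had a match in this window. The element bound by ATF4 occurred in 1 of the 10 windows, that of Slc7a11, where 0.594% of the windows of genes tested held it, and the AP-1 motif in 2 of the 10, those of Osgin1 and Srxn1, where 5.50% did. Matches of letters are a description of these windows and do not show binding.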

How the data were processed

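RNA of 6 aortas, 3 per group, was sequenced after TRIzol extraction and capture of messenger RNA on oligo(dT) beads, per the labels' protocols. The authors deposited expected counts for each gene without normalisation, 1 file per library. Bowtie2, RSEM (1.3.1), DESeq2 (1.4.5) and mm10 were used per the submitters' processing notes. Their annotation, filters and strand setting were not stated. An expected count shares out reads that fit several genes, and in the deposited files 34.6% to 35.9% of values were fractional. In 1 Sept2C111A file the column heading carried another library number, and GEO's record of the sample was used.

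Expected counts were rounded to whole numbers. The test was that of edgeR 4.0.16 under R 4.3.3 (filterByExpr at a minimum count of 10, TMM scaling, two-sided quasi-likelihood F test on group alone, Benjamini-Hochberg adjustment, threshold 0.05), which kept 14466 genes and all 10 members. The SE is the size of the log2 fold change over the square root of F. DESeq2 1.42.0, limma 3.58.1 (voom with quality weights), other scalings and filters, each library left out and a replicate block were alternatives. The tests were run on simulated counts as a check of the code. Those counts held no outlying library, so they do not show which test's calls hold here. Collection days and batches are not labelled, and p-values measure only the spread between these samples, which may be partly technical. The members and lists were chosen with earlier results of these data known. All members are named, as are the 3 genes of smallest edgeR p per list and the 3 genes of nearest profile to Slc7a11, Gclm, Txnrd1 and Osgin1. Log2 profiles used a prior count of 2. Coordinates are from GENCODE vM21 on mm10, 1-based. The motifs were chosen with the results known, and the antioxidant pattern was widened to its TGAG form after a first search.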

Additional observations from a re-analysis of the deposited data

How the results depend on the processing

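No gene was called by edgeR, with a smallest adjusted p of 0.316 and 2171 genes at an unadjusted p under 0.05, nor under other scalings, filters, limma-voom or with any 1 library left out. DESeq2 called 575 genes and 6 of the 110 pathway genes. With any 1 library left out, edgeR called 0 genes, and the members' median log2 fold change ran from -0.93 to -0.59. DESeq2 with 1 library left out, added after seeing the data, called 240, 660 and 133 genes without Sept2C111A recipients 1, 2 and 3, and 331, 1768 and 322 without control recipients 1, 2 and 3. Of the pathway genes it called 4, 9 and 1 in the first 3 of these fits and 3, 26 and 4 in the others, with the same libraries left out. Of the members it called Slc7a11 in 6 of 6 such fits, Gclm and Gsr in 4, losing both without Sept2C111A recipient 1 and without Sept2C111A recipient 3, and Txnrd1 and Osgin1 in 2. Txnrd1 was called only without Sept2C111A recipient 2 or control recipient 2, and Osgin1 only without control recipient 2 or 3. Of the members, Osgin1 moved most, to -0.87 without control recipient 1 and -1.15 by limma-voom, and Nfe2l2 and Gclc, near 0, changed sign under some settings. Replicate numbers did not pair the samples (correlations of same-numbered deviations were 0.005, 0.15 and -0.17), and with a replicate block edgeR called 0 genes and the members' median was -0.72. With 3 libraries per group, depth limits Slc7a11 in Sept2C111A recipients, at 13.0 to 26.7 counts.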
